A study of Mus musculus with 6 samples.

Results

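The blood-brain barrier is formed by the endothelial cells of brain capillaries. 10 genes by which the state of this barrier is commonly read were followed here in chronic stroke infarcts: the tight junction genes *Cldn5* and *Ocln*, the transport genes *Mfsd2a*, *Slco1a4*, *Slco1c1*, *Abcb1a*, *Abcg2*, *Slc2a1* and *Slc7a5*, and *Plvap*, which marks vessels that lack a barrier. They were taken by symbol, as a list of known roles drawn up with earlier results of these data known, and all 10 were found among the 46078 gene identifiers counted and were among the 15554 genes with enough counts to be tested. The samples were 3 infarcts and 3 contralateral cortices from wild type male C57BL/6J mice with a labelled age of 3 months. Each mouse had undergone the DH model, in which the distal middle cerebral artery is permanently coagulated and the animal is then kept in low oxygen, and tissue was dissected by eye 7 weeks later. The contralateral cortices therefore came from brains that also carried a stroke and had been exposed to hypoxia, and no cortex without stroke entered the comparison. The labels do not say which infarct and which cortex shared a mouse or that the 3 samples of a region came from separate mice, so the p values below measure the spread between these samples, which may be technical in part.

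Brain capillary cells are joined by tight junctions, in which claudin 5, encoded by *Cldn5*, is the main claudin and occludin, encoded by *Ocln*, is a further transmembrane strand protein. Because these junctions close the path between cells, nutrients enter through carriers in the endothelial membrane, such as the glucose carrier GLUT1 (*Slc2a1*) and the amino acid carrier LAT1 (*Slc7a5*), while ATP-driven pumps such as P-glycoprotein (*Abcb1a*) and BCRP (*Abcg2*) return drugs and other foreign compounds to the blood. Passage through the cell in vesicles is also kept low, a property that depends on the lipid carrier Mfsd2a, and Wnt ligands from neighboring cells maintain the whole program through β-catenin in the endothelium. *Plvap* encodes the diaphragm protein of fenestrated vessels and of caveolae and is normally almost silent in barrier capillaries.

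To show the DNA in front of genes that moved in opposite directions, the 250 bases before the RefSeq start (mouse build GRCm38.p6) are given for *Mfsd2a* and *Slco1c1*, the members that fell, and for *Abcb1a* and *Cldn5*, which rose. They lie at chr4:122961189-122961438 on the minus strand, chr6:141524104-141524353 on the plus strand, chr5:8566841-8567090 on the plus strand and chr16:18776597-18776846 on the plus strand, respectively. Letters run 5′ to 3′ along the gene, and capitals mark the motifs that were searched on both strands.
Mfsd2a: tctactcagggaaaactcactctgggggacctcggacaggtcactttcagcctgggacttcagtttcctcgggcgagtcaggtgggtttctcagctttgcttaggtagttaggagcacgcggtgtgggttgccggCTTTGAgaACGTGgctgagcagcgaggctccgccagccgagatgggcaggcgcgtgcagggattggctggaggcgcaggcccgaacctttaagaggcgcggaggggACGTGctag
Slco1c1: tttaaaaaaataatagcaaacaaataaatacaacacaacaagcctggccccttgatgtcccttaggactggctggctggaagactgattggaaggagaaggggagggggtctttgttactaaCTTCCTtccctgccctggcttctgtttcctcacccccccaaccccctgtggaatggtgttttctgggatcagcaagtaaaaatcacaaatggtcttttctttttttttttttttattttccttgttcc
Abcb1a: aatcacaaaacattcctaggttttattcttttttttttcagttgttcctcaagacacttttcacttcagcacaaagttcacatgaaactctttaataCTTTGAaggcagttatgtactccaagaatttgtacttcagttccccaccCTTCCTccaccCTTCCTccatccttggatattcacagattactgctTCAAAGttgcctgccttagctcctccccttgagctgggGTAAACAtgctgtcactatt
Cldn5: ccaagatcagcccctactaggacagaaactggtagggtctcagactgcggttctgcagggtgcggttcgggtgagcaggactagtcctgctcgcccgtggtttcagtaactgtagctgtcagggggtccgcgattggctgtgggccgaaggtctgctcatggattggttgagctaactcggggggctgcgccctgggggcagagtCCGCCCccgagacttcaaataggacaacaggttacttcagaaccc
The motifs were AGGAAG, read by ETS factors, TCAAAG, read by the TCF and LEF partners of β-catenin, ACAATG, read by SOX factors, GTAAACA, read by forkhead factors, the GC box GGGCGG, and ACGTG, the core of the site read by hypoxia-inducible factors. *Mfsd2a* held a TCF/LEF motif that began 115 bases before the start and ACGTG at 107 and 9 bases before it. *Abcb1a* held TCF/LEF motifs at 153 and 58 bases, ETS motifs at 104 and 93 bases and the forkhead motif at 20 bases before the start. This RefSeq start, just after base 8567090, lies far upstream of the GENCODE interval of *Abcb1a* given below, which begins at base 8660077. Whether the counted *Abcb1a* transcripts begin at the RefSeq start was not tested. *Slco1c1* held a single ETS motif, at 128 bases, and *Cldn5* a single GC box, at 45 bases. Of the 32851 RefSeq promoters of this length, 29.5% held the ETS motif, 13.8% the TCF/LEF motif, 10.7% the SOX motif, 3.17% the forkhead motif, 32.7% the GC box and 16.6% ACGTG. Among the 8 members with a promoter in the table, the numbers were 4, 2, 2, 1, 4 and 2 in the same order. A member was counted if any of its promoters matched, and *Abcg2* and *Ocln* had more than 1. These numbers are therefore not directly comparable with the shares, which are over single promoters. A match describes the letters only and says nothing of a factor bound there. *Slc7a5* and *Plvap* were not matched.

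The DH infarcts and cortices differed across much of the transcriptome, which set the background for every count below. Libraries held 12146959 to 13427057 counts on genes in infarcts and 11943570 to 19933962 in contralateral cortices. Counts were scaled by the trimmed mean of M values (TMM) to CPM, the counts of a gene per 1000000 counts of its library, and the edgeR quasi-likelihood test found 34.2% of genes higher and 30.8% lower in infarcts at a *p* under 0.05 after Benjamini-Hochberg adjustment. With a fold change above 2 as well, 25.7% were higher and 20.9% lower. The 3 libraries of each region correlated with each other at 0.957 or above on the log2 CPM scale, and with those of the other region at 0.784 or below.

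Within this background, 4 of the 10 barrier genes rose (*Abcb1a*, *Plvap*, *Abcg2* and *Cldn5*), 2 fell (*Mfsd2a* and *Slco1c1*) and 4 did not pass the test (*Ocln*, *Slc2a1*, *Slco1a4* and *Slc7a5*). Of those that rose, 3 did so by more than 2-fold, and both falls were over 2-fold. Neither share stood far from that of all genes, and the median log2 fold change of the members was 0.09 against 0.03 over all genes tested, and between -0.043 and 0.22 with 1 library left out. Transcripts of the efflux pumps thus rose while those of a lipid carrier and a thyroid hormone carrier fell, and those of the glucose carrier and occludin did not pass the test (see the plot of CPM by library). The regions did not overlap for 7 members, 4 of them higher and 3 lower in infarcts, where 37.6% of all genes were separated with infarcts higher and 34.7% with infarcts lower. In bulk tissue, fewer cells of a type and less RNA per cell cannot be told apart.

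**Figure D1:**
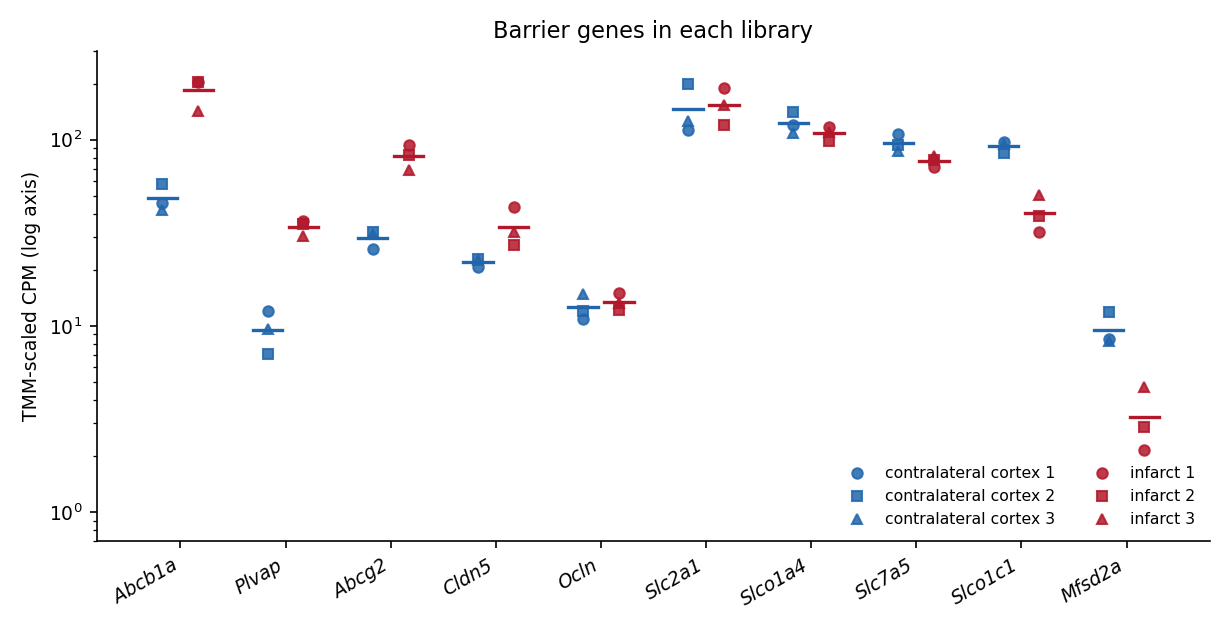
TMM-scaled CPM (log axis) of the 10 barrier genes in each of the 3 contralateral cortices (blue) and 3 infarcts (red), with marker shape giving the library and bars the mean, ordered by log2 fold change. *Abcb1a*, *Plvap*, *Abcg2* and *Cldn5* sit higher in all 3 infarcts, *Mfsd2a*, *Slco1c1* and *Slc7a5* lower, and the other 3 genes overlap.

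Of the junction genes, *Cldn5* (ENSMUSG00000041378, chr16:18776847-18778262, GRCm38) measured 43.3, 27.1 and 32.1 CPM in infarcts 1, 2 and 3 and 20.7, 22.9 and 22.6 CPM in the 3 contralateral cortices. All 3 infarcts were above all 3 cortices, although infarct 2 was close to them and infarct 1 stood well above the others. The level rose 1.55-fold, from 22.1 ± 1.16 to 34.1 ± 8.27 CPM (mean ± SD, *n* = 3), a log2 fold change of 0.63 ± 0.20 (SE; Benjamini-Hochberg adjusted *p* = 0.0169, edgeR quasi-likelihood test). Without contralateral cortex 1 this call was lost, with a log2 fold change of 0.57 (Benjamini-Hochberg adjusted *p* = 0.071, edgeR). *Ocln* (ENSMUSG00000021638, chr13:100496507-100552718) measured 15.0, 12.2 and 13.2 CPM in infarcts and 10.9, 12.0 and 14.8 CPM in cortices, and the regions overlapped. Its log2 fold change was 0.10 ± 0.19, which did not pass the test. The ratio of *Cldn5* to endothelial transcripts in general, described further below, moved the other way.

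*Mfsd2a*, which carries lysophospholipids that hold docosahexaenoic acid into the brain and keeps vesicle traffic low, had the largest fall. Infarcts 1 to 3 held 27, 39 and 69 of its reads and cortices 1 to 3 held 162, 183 and 90, which gave 2.15, 2.86 and 4.71 CPM against 8.46, 11.9 and 8.31 CPM. Every infarct was lower than every cortex, and infarct 3 was the highest of the infarcts. The level of *Mfsd2a* (ENSMUSG00000028655, chr4:122946850-122961188) was 2.93-fold lower, a log2 fold change of -1.55 ± 0.31 (Benjamini-Hochberg adjusted *p* = 0.00168, edgeR quasi-likelihood test). With any 1 library left out it lay between -1.91 and -1.32, and it passed each time.

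The organic anion transporters are neighbors on chromosome 6 and differed from each other. *Slco1c1* (ENSMUSG00000030235, chr6:141524368-141570177) encodes the carrier that brings the thyroid hormone thyroxine across brain capillaries. It measured 31.8, 38.7 and 50.2 CPM in infarcts and 97.7, 84.4 and 94.7 CPM in cortices, so that the highest infarct was far below the lowest cortex. The fall was 2.29-fold, with a log2 fold change of -1.20 ± 0.18 (Benjamini-Hochberg adjusted *p* = 2.92e-04, edgeR quasi-likelihood test). *Slco1a4* (ENSMUSG00000030237, chr6:141805440-141856199), which encodes a carrier of bile acids, steroid conjugates and drugs, measured 116, 98.2 and 109 CPM in infarcts and 119, 141 and 109 CPM in cortices. The regions of *Slco1a4* overlapped, and its log2 fold change of -0.19 ± 0.15 did not pass the test. Infarct 3, which had the highest *Mfsd2a* and *Slco1c1* of the infarcts, also had the most neuronal RNA. There 6 neuronal markers summed to 1207 CPM, against 464 and 617 CPM in the other 2 infarcts and 7034 to 8238 CPM in cortices. The sum of 7 astrocyte markers was also highest in infarct 3, at 6529 CPM against 4596 and 4866 CPM. *Slc1a2* gave 3922 CPM of that sum. *Gjb6* and *Gja1* went the other way and were lowest in infarct 3, at 244 and 411 CPM. The part of remaining cortex in the values of *Mfsd2a* and *Slco1c1* was not tested.

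Both efflux pumps rose. *Abcb1a* (ENSMUSG00000040584, chr5:8660077-8748575) measured 204, 204 and 143 CPM in infarcts and 45.9, 57.7 and 41.9 CPM in cortices. Its lowest infarct was more than 2-fold above its highest cortex. The mean rose from 48.5 ± 8.21 to 184 ± 35.0 CPM (SD, *n* = 3), 3.79-fold, with a log2 fold change of 1.92 ± 0.19 (Benjamini-Hochberg adjusted *p* = 1.82e-05, edgeR quasi-likelihood test). *Abcg2* (ENSMUSG00000029802, chr6:58584523-58695676) measured 93.0, 82.7 and 68.3 CPM in infarcts and 25.9, 32.1 and 31.0 CPM in cortices. It rose 2.74-fold, a log2 fold change of 1.46 ± 0.17 (Benjamini-Hochberg adjusted *p* = 4.79e-05, edgeR). For both pumps infarct 3 was the lowest infarct.

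Rodents carry a near copy of *Abcb1a*, *Abcb1b*, which is the main P-glycoprotein gene of several other tissues and of which 12.6% of 75-base stretches also occur in *Abcb1a* or *Abcb4*. Of the *Abcb1a* transcript, 11.4% of such stretches, 559 of 4923, occur in *Abcb1b* or *Abcb4*, so a single read there could match more than 1 gene. Reads were paired, and the share of pairs without a unique place was not computed. *Abcb1b* measured 28.5, 23.3 and 19.5 CPM in infarcts and 4.70, 4.43 and 5.35 CPM in cortices, with a log2 fold change of 2.30 ± 0.21 (Benjamini-Hochberg adjusted *p* = 9.55e-06, edgeR quasi-likelihood test). Counts of *Abcb1b* per count of *Abcb1a* were 0.130 ± 0.0136 in infarcts and 0.102 ± 0.0255 in cortices, and these ratios overlapped between the regions. A gene model on the other strand overlapped 10.1% of the *Abcb1a* exon bases, and the strand setting used for counting was not given in the sources used here.

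The closest relatives of *Slco1a4* were nearly silent in cortex. *Slco1a5* was counted 59, 85 and 84 times in infarcts but only 4, 0 and 0 times in cortices, and it rose with a Benjamini-Hochberg adjusted *p* of 3.07e-05 (edgeR quasi-likelihood test). Counts of *Slco1a5* per count of *Slco1a4* were 0.0521 ± 0.0116 in infarcts and 0.0006 ± 0.001 in cortices. *Slco1a1* held 2, 3 and 7 counts in infarcts and none in cortices, and *Slco1a6* held 1, 4 and 10 counts against 1, 3 and 0, both too low to be tested. Only 1.76% of the 75-base stretches of *Slco1a4* and 3.19% of those of *Slco1a5* occurred in another gene.

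The carriers of glucose and large neutral amino acids were not called. *Slc2a1* (ENSMUSG00000028645, chr4:119108711-119137983) measured 189, 120 and 153 CPM in infarcts and 112, 198 and 126 CPM in cortices, so that the regions overlapped and contralateral cortex 2 held the highest value of all. Its log2 fold change was 0.08 ± 0.24, and 0.37 without contralateral cortex 2, which did not pass the test either. *Slc7a5* (ENSMUSG00000040010, chr8:121881150-121907694) measured 70.9, 77.6 and 82.1 CPM in infarcts and 107, 93.6 and 87.1 CPM in cortices. The regions of *Slc7a5* did not overlap, but its log2 fold change of -0.32 ± 0.14 missed the threshold (Benjamini-Hochberg adjusted *p* = 0.0699, edgeR quasi-likelihood test). Its partner chain *Slc3a2*, the heavy chain that brings LAT1 to the membrane, rose with a log2 fold change of 0.59 ± 0.16 (Benjamini-Hochberg adjusted *p* = 0.00879, edgeR). *Slc3a2* measured 223, 171 and 172 CPM in infarcts against 124, 113 and 139 CPM. Counts of *Slc7a5* per count of *Slc3a2* were 0.317, 0.455 and 0.477 in infarcts and 0.865, 0.831 and 0.626 in cortices, with no overlap; this ratio was chosen after the values had been seen and carries no test.

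*Plvap* (ENSMUSG00000034845, chr8:71497765-71511752) was counted 461, 479 and 448 times in infarcts and 230, 108 and 104 times in cortices, or 36.7, 35.2 and 30.6 CPM against 12.0, 7.03 and 9.60 CPM. The infarcts lay close together and all were more than 2-fold above the highest cortex. The level rose 3.57-fold, from 9.55 ± 2.49 to 34.2 ± 3.20 CPM (SD, *n* = 3), with a log2 fold change of 1.83 ± 0.22 (Benjamini-Hochberg adjusted *p* = 5.32e-05, edgeR quasi-likelihood test). Counts of *Plvap* per count of *Cldn5*, a ratio also chosen after the values had been seen, were 0.849, 1.30 and 0.953 in infarcts and 0.579, 0.308 and 0.425 in cortices. For *Mfsd2a* per count of *Cldn5* they were 0.101 ± 0.0487 in infarcts and 0.432 ± 0.0798 in cortices. Both ratios were separated between the regions, the first higher and the second lower in all 3 infarcts.

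Levels of different genes were compared per kilobase of merged exon. Merged exons hold all isoforms and can exceed the length of 1 transcript. They spanned 6414 bases for *Slco1a4* and 3708 for *Slc7a5*, where the transcripts searched for shared stretches held 3823 and 3517. Orders by transcript length were not computed, so the ranks below hold for merged exons only. In contralateral cortex the order was *Slc2a1* at 41.5 ± 13.2 CPM per kb, *Slc7a5* at 25.9 ± 2.76, *Slco1a4* at 19.2 ± 2.54, *Slco1c1* at 17.8 ± 1.34, *Cldn5* at 15.6 ± 0.818, *Abcb1a* at 8.85 ± 1.5, *Plvap* at 4.81 ± 1.25, *Mfsd2a* at 4.25 ± 0.907, *Abcg2* at 3.64 ± 0.405 and *Ocln* at 2.98 ± 0.469 CPM per kb. The neighbors *Slco1a4* and *Slco1c1* overlapped, as did each neighboring pair from *Plvap* to *Ocln*. In infarcts the order was *Slc2a1* at 44.0 ± 9.78 CPM per kb, *Abcb1a* at 33.5 ± 6.39, *Cldn5* at 24.1 ± 5.84, *Slc7a5* at 20.7 ± 1.52, *Plvap* at 17.2 ± 1.61, *Slco1a4* at 16.8 ± 1.42, *Abcg2* at 9.98 ± 1.52, *Slco1c1* at 7.76 ± 1.80, *Ocln* at 3.19 ± 0.333 and *Mfsd2a* at 1.44 ± 0.587 CPM per kb. Here each neighboring pair from *Slc2a1* to *Slc7a5* overlapped, and so did *Plvap* with *Slco1a4* and *Abcg2* with *Slco1c1*. *Abcb1a* moved from rank 6 to rank 2 and *Slco1c1* from rank 4 to rank 8, while *Slc2a1* was first in both regions. *Plvap* and *Mfsd2a*, neighbors that overlapped in cortex, held ranks 5 and 10 in infarcts (see the plot of levels per kilobase).

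**Figure D2:**
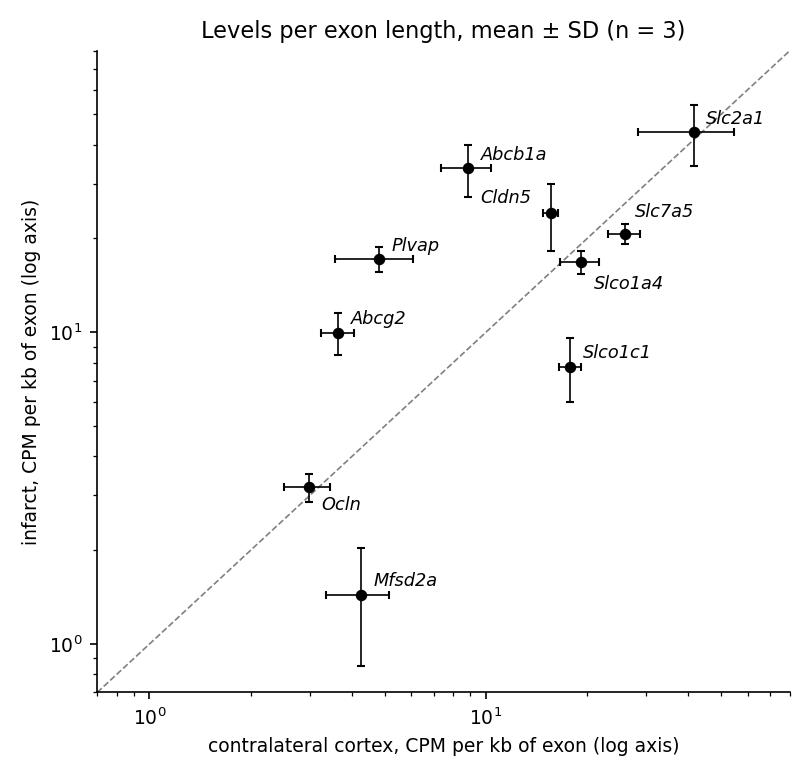
Mean level of each barrier gene in contralateral cortex (horizontal) and infarct (vertical), in CPM per kilobase of merged exon on log axes; bars are SD over 3 libraries and the dashed line marks equal levels. *Abcb1a*, *Plvap* and *Abcg2* lie well above the line, *Slco1c1* and *Mfsd2a* well below it.

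Endothelial transcripts in general were higher in infarcts. Of 22 genes expressed by endothelial cells of most organs, 19 rose, none fell and 3 did not pass the test (*Flt1*, *Cd34* and *Ly6c1*), with a median log2 fold change of 1.25. *Fli1*, an ETS factor, had the largest rise of the list with a log2 fold change of 2.94 ± 0.23, followed by *Vwf*, von Willebrand factor, with 2.64 ± 0.20. The mean log2 CPM of the 22 genes was 5.27, 4.98 and 4.75 in infarcts and 3.70, 3.67 and 3.82 in cortices, a difference of 1.27 or 2.42-fold. Infarct 1 held the highest endothelial level and also the highest *Cldn5*. A stricter list of 11 genes, which leaves out *Fli1* and *Vwf* and all of which rose, differed by 1.38.

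Each barrier gene was then set against the mean of the 22 endothelial genes in its own library. On this scale 7 members were lower in every infarct than in any cortex, 2 were higher and *Abcg2* overlapped. Because the reference itself rose, most genes read lower here: 68.0% of all 15554 genes tested were lower in every infarct and 16.7% were higher, and the median difference was -1.25 over all genes and -1.17 over the 10 members. The counts of members were near these shares and say nothing particular to the barrier genes. The differences in log2 ratio, infarct minus contralateral, were -2.88 for *Mfsd2a*, -2.49 for *Slco1c1*, -1.59 for *Slc7a5*, -1.46 for *Slco1a4*, -1.17 for *Ocln*, -1.17 for *Slc2a1* and -0.67 for *Cldn5*. On this scale *Mfsd2a* was 7.35-fold and *Slco1c1* 5.62-fold lower relative to the mean of the 22 genes. *Abcb1a* was higher by 0.64 and *Plvap* by 0.59, and *Abcg2* differed by 0.18, or -0.04 with the median of the endothelial genes as reference. The separation of *Plvap* was narrow, with a log2 ratio of -0.07 in infarct 1 against -0.11 in contralateral cortex 1. Each separated member had an exact two-sided permutation *p* of 0.1, the smallest that 3 against 3 libraries allow (0.111 after Benjamini-Hochberg adjustment over the 10 members), so none could pass the threshold. *Cldn5* rose in the tissue and was lower against endothelial genes, and *Abcg2* rose in the tissue and moved about as much as they did (see the plot of both scales). The reference holds vessels of every kind, and some of its genes are also made by other cells that rose in infarcts.

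**Figure D3:**
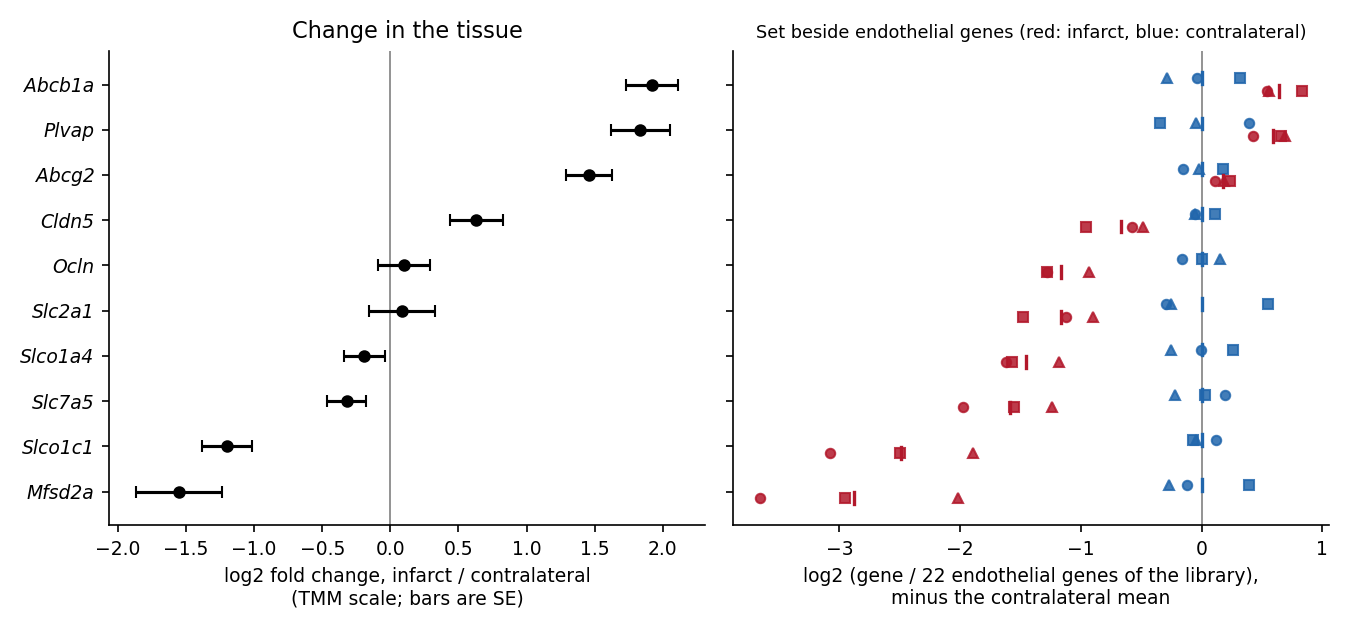
Left, log2 fold change of each barrier gene between infarct and contralateral cortex, with SE bars from the edgeR fit; right, log2 of each gene over the mean of 22 endothelial genes of the same library, minus the contralateral mean, with circles, squares and triangles for libraries 1, 2 and 3 and bars for the means. Against endothelial genes, *Mfsd2a* and *Slco1c1* lie furthest below 0, and only *Abcb1a* and, narrowly, *Plvap* lie above the cortices without overlap.

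Other junction genes mostly rose. Of 12 tested, 8 rose, 2 fell and 2 did not pass, with a median log2 fold change of 1.51, against 34.2% and 30.8% of all genes. The largest rises were those of *Lsr*, the angulin of tricellular junctions, with 2.29 ± 0.30, and *Cdh5*, the endothelial cadherin, with 2.06 ± 0.18 (log2 fold change ± SE). The scaffold gene *Tjp1* rose by 0.94 ± 0.14. *Cgn*, which encodes cingulin, fell with a log2 fold change of -2.94 ± 0.48 from 2.46 ± 0.957 to 0.316 ± 0.0678 CPM, and *Cldn12*, a claudin also made outside vessels, fell with -1.07 ± 0.15. Gene models on the other strand overlapped 44.7% of the *Lsr* exon bases.

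Among 16 other transport genes of the barrier, 10 rose, 2 fell and 4 did not pass, with a median log2 fold change of 1.08. After *Abcb1b*, the largest rise was that of *Slc16a1*, the lactate and ketone carrier MCT1, with a log2 fold change of 1.93 ± 0.19 from 116 ± 2.33 to 442 ± 105 CPM. *Slc19a3*, a thiamine carrier, fell with -1.28 ± 0.28, and *Slc7a1*, the carrier of arginine and lysine, with -0.54 ± 0.17. The call of *Slc7a1* was lost without infarct 2 (-0.37), without contralateral cortex 1 (-0.54) and with scaling to library totals (-0.34). The iron exporter gene *Slc40a1* rose by 1.75 ± 0.19, while *Tfrc*, the transferrin receptor, had a log2 fold change of -0.37 ± 0.16 that did not pass. Several of these genes are also expressed outside vessels. So are *Slc2a1*, *Slc7a5* and *Slco1c1* among the members, *Slco1c1* in the choroid plexus as given below.

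Caveolae carry vesicle traffic that Mfsd2a keeps low. Of 6 caveola genes, 5 rose and 1, *Cav2*, did not pass, with a median log2 fold change of 1.79. *Ehd2*, which holds caveolae at the membrane, rose by 2.89 ± 0.21, *Cavin1*, which coats them, by 2.69 ± 0.24, and *Cav1* by 1.57 ± 0.16 on the log2 scale. In the list of 12 genes of fenestrated or sprouting vessels, 10 could be tested, of which 9 rose and 1 fell, with a median log2 fold change of 2.89. *Aplnr*, the apelin receptor of sprouting endothelium, rose from 0.951 ± 0.446 to 14.3 ± 2.69 CPM with a log2 fold change of 3.84 ± 0.33. *Exoc3l2* had the largest fitted rise but few counts, 59, 19 and 25 in infarcts and 5, 0 and 1 in cortices. *Apln*, the ligand of Aplnr, fell by 1.70 on the log2 scale, and *Gpihbp1*, a marker of some peripheral capillaries, was at 0 counts in all 6 libraries. All 8 fibroblast markers and 8 of 10 mural markers also rose in infarcts, as described below. The part of these and other cells in the caveola and the fenestrated or sprouting lists was not tested.

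The Wnt and Norrin list, which holds the pathway that maintains the barrier, moved in both directions. Of 19 genes, 8 rose, 3 fell and 8 did not pass, with a median log2 fold change of 0.31. Of all genes tested, 34.2% rose and 30.8% fell. Without infarct 3, or with a replicate block, 5 genes of the list fell. Of the ligands, *Wnt7b* fell with a log2 fold change of -1.14 ± 0.31, while *Wnt7a* and *Ndp* had values of -0.90 ± 0.38 and -0.65 ± 0.32 that did not pass. Without infarct 3 both ligands passed, at -1.35 and -1.06 (Benjamini-Hochberg adjusted *p* = 0.00714 and 0.00736, edgeR), and they passed with the block too. The receptor genes *Lrp5*, *Lrp6*, *Fzd4*, *Adgra2* and *Reck* all rose, *Lrp5* most with 2.64 ± 0.21, and *Tspan12*, a partner of Fzd4, fell with -0.64 ± 0.16. *Tcf7*, a nuclear partner of β-catenin that T cells also express, rose by 2.69 ± 0.44 from 5.32 ± 1.42 to 34.6 ± 17.9 CPM. *Ctnnb1*, which encodes β-catenin, rose by 1.06 ± 0.19, and its nuclear partner *Lef1* by 0.87 ± 0.29. The target genes *Axin2*, *Apcdd1* and *Nkd1* had log2 fold changes of -0.01 ± 0.25, 0.20 ± 0.19 and -0.16 ± 0.24, and none passed.

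**Figure D4:**
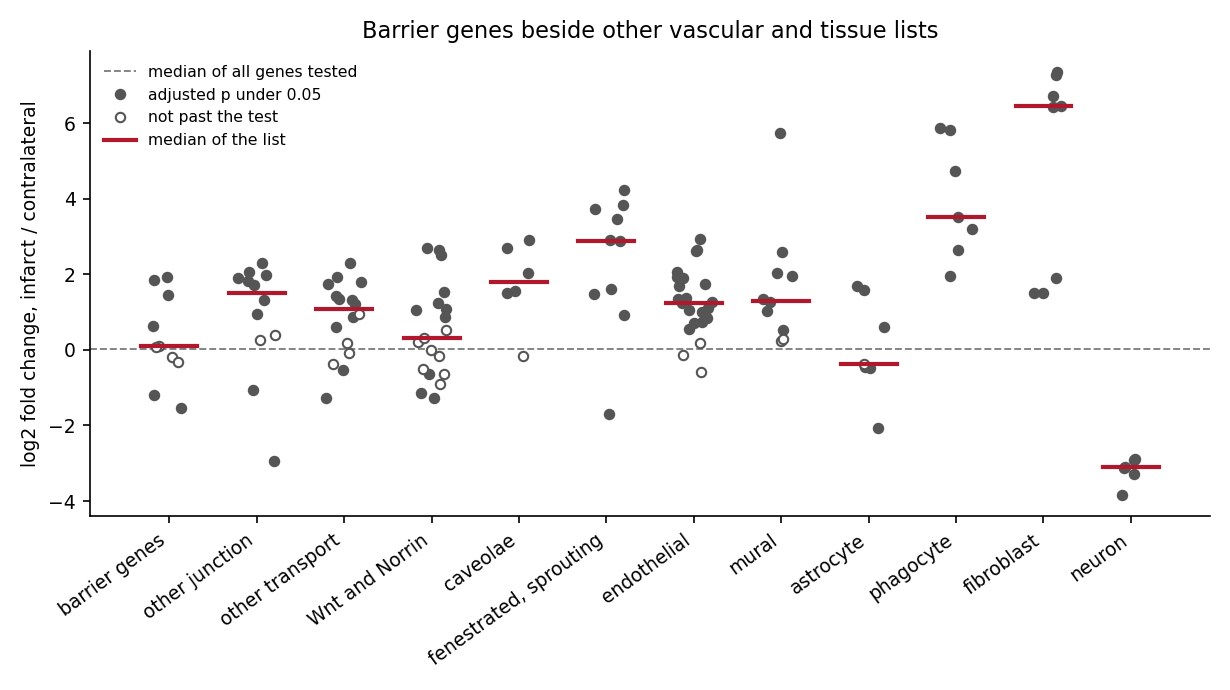
Log2 fold change (infarct over contralateral cortex) of every tested gene in the 10 barrier genes and 11 other lists; filled points passed edgeR's test at an adjusted *p* under 0.05, red bars are list medians and the dashed line is the median of all genes tested. The barrier genes spread on both sides of 0 around a median of 0.09, whereas the endothelial, caveola and fenestrated or sprouting lists lie mostly above it, with medians of 1.25, 1.79 and 2.89.

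Markers of other cells moved with the region, and their part in the barrier genes was not tested. All 6 neuronal markers fell (median log2 fold change -3.11), led by *Snap25* with -3.84 ± 0.27. Of 7 astrocyte markers, 3 rose and 3 fell, and their sum lay at 4596 to 6529 CPM in infarcts and 13445 to 14489 CPM in cortices, most of it from *Slc1a2*. All 7 phagocyte markers rose, with sums of 1340 to 1909 CPM against 158 to 202 CPM, as did all 8 fibroblast markers, with sums of 6991 to 8714 CPM against 166 to 210 CPM. Of 10 mural markers 8 rose and none fell, *Anpep* most with 5.75 ± 0.25, a gene that fibroblasts and phagocytes also express, then *Pdgfrb* with 2.59 ± 0.23, and *Abcc9* and *Cspg4* did not pass. Of 6 lymphatic markers 4 rose and *Reln*, which cortical neurons also make, fell with -2.08 ± 0.17. Which cells gave the 4 rises was not tested. *Prox1*, the defining lymphatic factor but also a gene of neurons and glia, had a log2 fold change of 0.42 ± 0.19 that did not pass, and *Ccl21a* held 108, 34 and 57 counts in infarcts and 0, 0 and 2 in cortices. Of 6 markers of the choroid plexus, which also expresses *Slco1c1* and *Slco1a5*, 4 could be tested and 2 rose, and *Ttr*, its most abundant transcript, had 0, 3 and 3 reads in infarcts and 0 in cortices. The red cell genes summed to 8.08 to 30.2 CPM in infarcts and 0.846 to 4.28 CPM in cortices, after perfusion with saline in both.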

How the data were processed

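Raw counts per gene were deposited for 3 infarcts and 3 contralateral cortices, 1 library per sample. To make these counts, the authors prepared stranded mRNA libraries, sequenced them as paired reads, trimmed them with Trimmomatic 0.32, aligned them with STAR 2.5.2b to mouse build GRCm38 and counted reads with HTSeq (tools and versions per the submitters' processing notes). The HTSeq version, strand setting and gene annotation were not given in the sources used here. 5 entries per library that name no gene were left out, after which 65.7% to 73.4% of tallied reads lay on genes. Symbols and exon lengths came from GENCODE M21, which held 45229 of 46078 identifiers.

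Counts were filtered with filterByExpr, scaled by TMM and tested with edgeR 4.0.16 (robust glmQLFit and glmQLFTest, region as the only term) over 15554 genes, with Benjamini-Hochberg adjustment and a threshold of 0.05; the biological coefficient of variation was 0.22. Log2 CPM used a prior count of 0.5 for the endothelial means and ratios. For the correlations between libraries and of same-numbered deviations it was 2. No interval from counting error was computed. Alternatives were DESeq2 1.42.0, limma 3.58.1 (voom), 3 other scalings, 2 other filters on low counts, a test against a fold change of 2 (glmTreat), a replicate block and leaving out each library. Scripts were tested on simulated data. Promoter sequences came from RefSeq.

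The 10 genes, the gene lists, the ratios and the rule for named genes were chosen with earlier results of these data known. Named were all 10 members, their near copies and the partner of *Slc7a5*, and of each other list up to 2 genes with the largest rise and up to 2 with the largest fall that passed, whose regions did not overlap and whose higher region averaged at least 1 CPM; for lists of other cell types also the most abundant gene. *Tjp1*, *Slc40a1*, *Tfrc*, *Cav1*, *Cav2*, *Gpihbp1*, *Flt1*, *Cd34*, *Ly6c1*, *Abcc9*, *Cspg4*, *Prox1*, *Ttr*, *Gja1* and the other Wnt pathway genes were added after their values had been seen. Some named results are not reported here.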

Additional observations from a re-analysis of the deposited data

How the results depend on the processing

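The 4 members that rose and the 2 that fell at an adjusted *p* under 0.05 kept these counts with DESeq2, limma voom, each other scaling and each filter on low counts. Against a fold change of 2 (glmTreat), 1 member fell in place of 2, *Slco1c1* being lost (adjusted *p* = 0.131), and 3 rose in place of 4, *Cldn5* being lost. *Cldn5* was also lost without contralateral cortex 1, and over its alternatives its adjusted *p* ran from 0.00326 to 1 (glmTreat). With library totals in place of TMM, the all-gene median on the log2 scale moved from 0.03 to 0.23, that of the members from 0.09 to 0.30, and 1 member rather than 2 fell by over 2-fold, since *Slco1c1* came to -0.99; with glmTreat it was also 1. Leaving out 1 library moved the members' median to between -0.043 and 0.22. Over all alternatives the log2 fold change stayed between 1.83 and 2.12 for *Abcb1a*, 1.35 and 1.66 for *Abcg2*, 1.65 and 2.03 for *Plvap*, and -1.91 and -1.32 for *Mfsd2a*. *Ocln*, *Slco1a4* and *Slc2a1* changed sign in some (-0.003 to 0.31, -0.27 to 0.01 and -0.08 to 0.37) and passed in none. Labels give both regions the numbers 1 to 3, but same-numbered libraries did not deviate together (r of -0.19, 0.10 and 0.0011). With 3 libraries per region this cannot settle whether they shared a mouse, and the numbers were not taken as pairs. With a replicate block, 4 members rose and 2 fell, with a median of 0.11, and 5100 genes rose and 4576 fell against 5324 and 4787 without it. In the Wnt list 5 genes fell with the block, or without infarct 3, and 3 otherwise in the reported fit. Over single genes, other lists and ratios to endothelial genes, 1836 recomputed values kept their side of the threshold or moved by less than the spread. Of the others, 40 fell short of it, 8 passed it anew and 22 moved further. No gene that passed in the reported fit or in the alternative reversed its direction. Genes that passed in neither were counted as kept even where the sign changed. Depth limited *Mfsd2a* most, with 27 counts in infarct 1.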
